A study of Mus musculus with 4 samples.

Results

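Interferon-stimulated genes were described in sorted vessel progenitor cells of C57BL/6 mice, as a set of 32 genes out of 31017 gene symbols in the count matrices. The members were taken from a written list, which was chosen with earlier results of these data known. All 32 were present in the matrices: 15 antiviral effectors, 9 guanosine triphosphatases (GTPases), 4 transcription factors and 4 sensors of viral nucleic acid with a partner ligase. Cells of population P1 were sorted as negative for CD45, Ter119 and PDGFRa and positive for Tie2 and CD31, with high CD105 and low Sca1. Cells of population P2 carried Tie2 and PDGFRa, lacked CD45, Ter119 and CD31, and had low CD105 and high Sca1. Each population was taken from fat and from lung, with 1 library per population and tissue, so 4 libraries in all. The libraries are called labelled lung P1, labelled fat P1, lung P2 and fat P2. No treatment is named in the labels, and all mice are of the same strain. The number, age and sex of the animals, and any pooling, are not given in the sources used here.

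Interferons are secreted proteins that cells release on infection and that neighbouring cells read through surface receptors, Janus kinases and STAT factors. Type I and type III interferons act through a complex that holds Stat2 and Irf9 and binds the interferon-stimulated response element (ISRE) in promoters. Interferon gamma acts through the gamma-activated site (GAS), and it is known as a strong inducer of the GTPases that attack vacuoles of intracellular microbes. Endothelial cells and fibroblasts both respond to interferons, and many of these genes also have a resting level in them.

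The kept barcodes had at least 1000 UMIs (unique molecular identifiers, each counting 1 captured transcript), at least 500 genes and at most 10% mitochondrial UMIs. This left 652 barcodes (labelled lung P1), 1948 (labelled fat P1), 1436 (lung P2) and 7898 (fat P2), with 1118642, 6510236, 3880015 and 43599072 UMIs in that order. The median barcode held 1561, 2964, 2150 and 5151.5 UMIs in the same order, so the library labelled lung P1 was the shallowest. Levels are given in CPM, the UMIs of a gene scaled to the summed UMIs of its library. A count of 0 allows a level of 3 counts, equal to 2.68 CPM in labelled lung P1, 0.461 in labelled fat P1, 0.773 in lung P2 and 0.0688 in fat P2. Between 1 and 3 kept barcodes of each library had a barcode sequence that also occurred in another. In endothelial against fibroblast markers the populations matched their gates. Endothelial markers outnumbered fibroblast markers in 100% and 98.5% of P1 barcodes, against 1.88% (lung) and 0.114% (fat) of P2 barcodes. Haemoglobin genes summed to 5809 CPM in labelled lung P1, 223 in labelled fat P1, 267 in lung P2 and 25.3 in fat P2. A UMI of a leukocyte marker was found in 33.6%, 9.86%, 25.1% and 9.15% of barcodes in the same order, though the gates left out CD45 and Ter119. The tissue labels of P1 went against tissue markers. Fabp4, a fatty acid carrier of fat and its capillaries, had 12379 CPM in labelled lung P1 and 94.2 CPM in labelled fat P1. Foxf1, known for its part in lung vessel formation, had 3.58 CPM in labelled lung P1 and 716 CPM in labelled fat P1. The lung epithelial gene Sftpc was at 0 UMIs in labelled lung P1 and at 738 CPM in labelled fat P1. The labels are kept below, and every P1 contrast between tissues, and every contrast of P1 with P2 within a tissue, depends on them.

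Promoter sequence gave a property of the members that the list did not use. RefSeq windows of 300 bases (250 before and 50 after a transcript start, build GRCm38.p6) were matched for 25 of the 32 members, with any start of a gene counted. The core letters of the ISRE, searched as GAAANNGAAA on both strands, occurred in 16 of these 25 members (64%), against 3.99% of the 27025 genes with a window. The core letters of the GAS, searched as TTCNNNGAA on both strands, occurred in 9 of 25 members (36%), against 9.55% of all genes. The 2 patterns can overlap, a match is a description and not a measured binding site, and a window without a match says nothing about the factor. The following stretches are the 250 bases before the start of members on which the results below turn, 5′ to 3′ along the gene's strand. Capitals mark ISRE core matches, and for Irf1 the GAS core match. Ifit1 lies at chr19:34640639-34640888 on the plus strand and has 2 matches, which begin 104 and 85 bases before the start. Isg15 lies at chr4:156200819-156201068 on the minus strand, with 3 overlapping matches that begin 78 to 66 bases before the start. Igtp lies at chr11:58199306-58199555 on the plus strand, with 1 match 34 bases before the start. Bst2 lies at chr8:71537473-71537722 on the minus strand, with 2 overlapping matches. Irf1 lies at chr11:53769764-53770013 on the plus strand, with 1 GAS match 90 bases before the start and no ISRE match. Igtp and Bst2 have a GAS core match as well, which is not marked in their stretches.
Ifit1: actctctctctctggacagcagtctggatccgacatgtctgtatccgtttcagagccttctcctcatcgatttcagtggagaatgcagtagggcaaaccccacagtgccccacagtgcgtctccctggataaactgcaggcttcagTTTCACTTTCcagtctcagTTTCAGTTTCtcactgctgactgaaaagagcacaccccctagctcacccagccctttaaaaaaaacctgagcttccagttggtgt
Isg15: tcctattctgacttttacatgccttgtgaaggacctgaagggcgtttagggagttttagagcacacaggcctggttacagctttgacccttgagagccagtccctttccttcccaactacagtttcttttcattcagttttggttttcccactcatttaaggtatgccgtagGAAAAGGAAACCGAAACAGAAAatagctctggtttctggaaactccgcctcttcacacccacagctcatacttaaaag
Igtp: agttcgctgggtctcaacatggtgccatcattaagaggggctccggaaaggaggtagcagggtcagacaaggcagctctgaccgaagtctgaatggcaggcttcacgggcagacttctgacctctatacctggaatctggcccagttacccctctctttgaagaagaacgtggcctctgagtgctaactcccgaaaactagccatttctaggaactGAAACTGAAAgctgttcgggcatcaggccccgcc
Bst2: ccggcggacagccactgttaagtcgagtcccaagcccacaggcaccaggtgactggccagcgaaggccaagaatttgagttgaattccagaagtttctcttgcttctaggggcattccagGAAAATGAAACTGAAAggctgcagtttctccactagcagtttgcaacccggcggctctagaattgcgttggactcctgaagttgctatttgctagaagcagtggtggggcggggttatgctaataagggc
Irf1: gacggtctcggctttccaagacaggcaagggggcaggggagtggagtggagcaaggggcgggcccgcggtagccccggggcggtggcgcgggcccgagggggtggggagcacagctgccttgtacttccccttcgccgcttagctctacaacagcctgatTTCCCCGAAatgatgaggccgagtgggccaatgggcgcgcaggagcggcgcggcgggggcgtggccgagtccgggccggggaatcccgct

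Further members had their match in a stretch of 30 bases, shown because these genes were the most unevenly spread or the GTPases set against them. Ifit3 is at chr19:34583397-34583426 (plus strand), Rsad2 at chr12:26456553-26456582 (minus), Gbp2 at chr3:142620594-142620623 (plus), Gbp7 at chr3:142530273-142530302 (plus) and Irgm1 at chr11:48871425-48871454 (minus).
Ifit3: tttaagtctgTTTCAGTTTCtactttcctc
Rsad2: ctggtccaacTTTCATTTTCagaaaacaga
Gbp2: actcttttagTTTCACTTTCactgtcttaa
Gbp7: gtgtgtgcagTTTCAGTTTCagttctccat
Irgm1: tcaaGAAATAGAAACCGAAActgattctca

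The members sit on 14 chromosomes, and some are neighbours. Ifit1, Ifit2 and Ifit3 lie within 99.3 kb of chromosome 19, and Gbp2, Gbp3 and Gbp7 within 108 kb of chromosome 3. Igtp and Irgm2 overlap on the same strand within 23.2 kb of chromosome 11, so reads in their shared exons cannot be told apart by position. Sequence shared at the transcript end, where the libraries were primed, makes some counts uncertain. Of the stretches of 60 bases in the last 500 bases of Oas1a, 51.2% also occur in Oas1g, and 12.9% of those of Ifit3 occur in Ifit3b. For Gbp4 11.1% are shared with other genes, and its annotation overlaps Gbp8 and Gbp9 on the same strand. Ifi47 overlaps Olfr56 and Irf9 overlaps Rnf31 in the same way. On the opposite strand, Irf7 overlaps Phrf1, Irf1 overlaps Gm17334 and Ifi35 overlaps Gm11626, and whether the counting used strand is not given in the sources used here. All of these genes are reported as counted.

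The summed level of the set was highest in the library labelled lung P1 and lowest in lung P2. All 32 members together had 5920 CPM in labelled lung P1, 4461 CPM in labelled fat P1, 1953 CPM in lung P2 and 3794 CPM in fat P2. One gene, Ifitm3, which blocks the entry of enveloped viruses from endosomes, made up a large part of this. It had 2637 CPM (95% Poisson interval 2543 to 2734) in labelled lung P1, 1224 (1197 to 1251) in labelled fat P1, 807 (779 to 836) in lung P2 and 1498 (1486 to 1509) in fat P2. Without Ifitm3 the sums were 3283, 3237, 1146 and 2297 CPM in the same order, and the 2 P1 libraries were then close. The median member had 70.6, 80.2, 30.5 and 44.9 CPM in that order. At 50 CPM or more stood 21 members in labelled lung P1, 22 in labelled fat P1, 7 in lung P2 and 13 in fat P2. Of all values 1 was 0: Oas1a, an oligoadenylate synthetase, had 0 UMIs in lung P2 and at most 15.2 CPM elsewhere. Intervals cover counting error only. A summed CPM cannot tell fewer expressing cells from less RNA per cell, which the spread over barcodes below addresses.

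**Figure D1:**
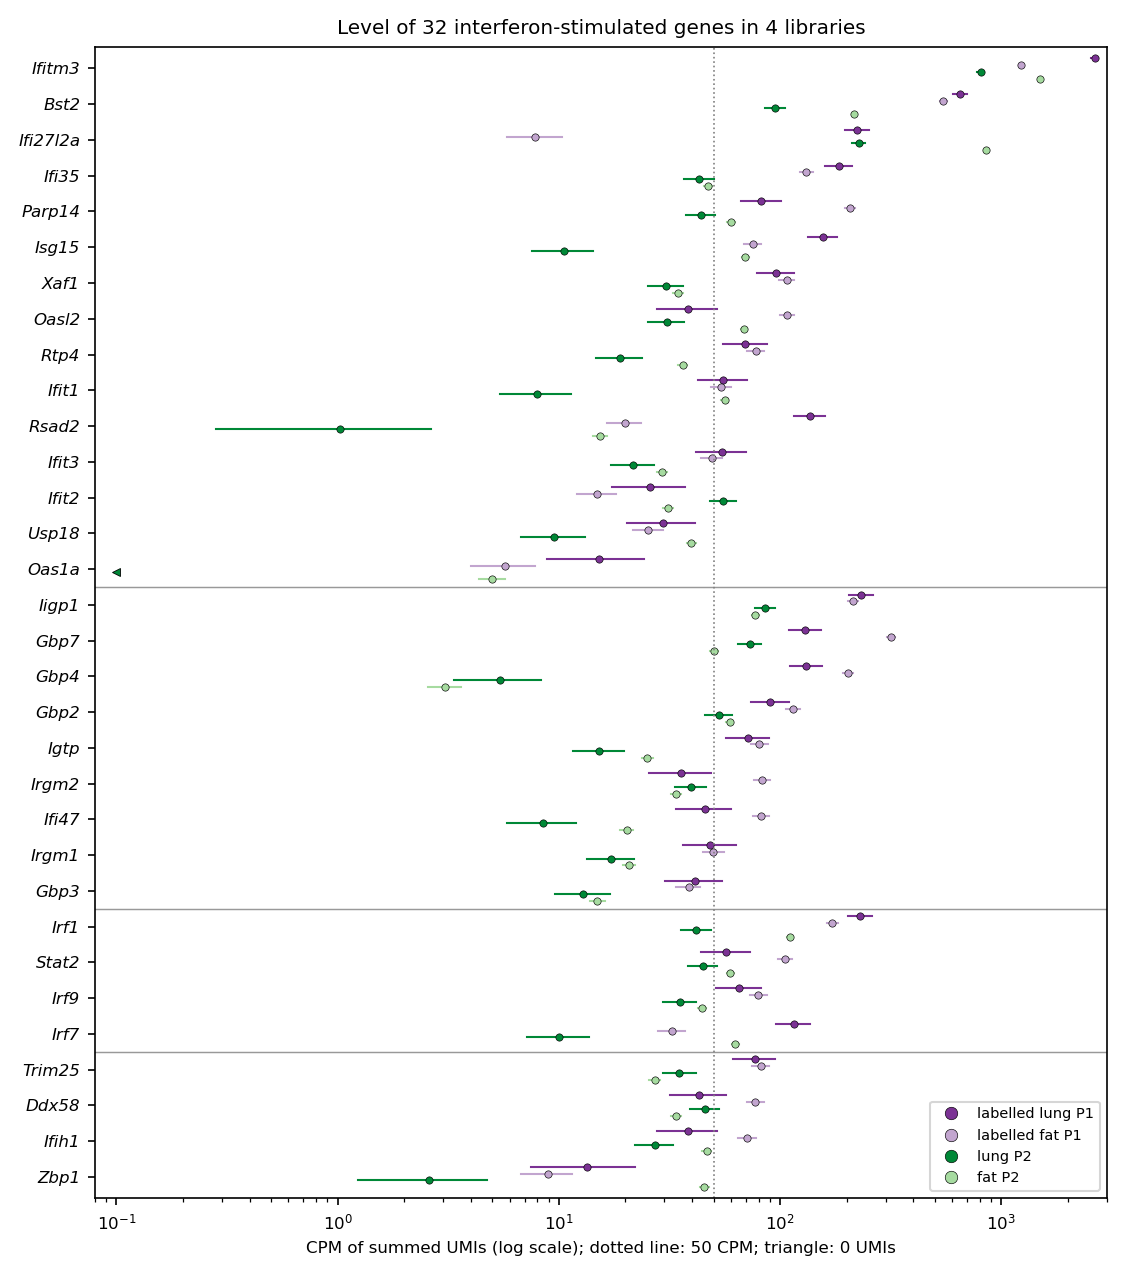
CPM of summed UMIs of each member (log axis) in labelled lung P1, labelled fat P1, lung P2 and fat P2, with exact Poisson 95% intervals as bars, grouped by role (effectors, GTPases, transcription factors, sensors). Most members lie further right in the 2 P1 libraries than in lung P2, and Ifi27l2a lies furthest right in fat P2 and at 7.83 CPM in labelled fat P1.

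P1 was set against P2 in each tissue to ask how the endothelial-type and the mesenchymal-type population differ in these genes. A member needed 50 CPM in at least 1 library of the pair to be called measured, and was counted as higher or lower at 4-fold or more after adding 10 CPM to both. In lung 22 members were measured, and 6 were at least 4-fold higher in P1, where 8.45% of 4791 measured genes were. None was at least 4-fold lower, where 11.8% of all genes were, and the median member had a log2 ratio of 1.43 against -0.12 for all genes. In fat 24 members were measured, and 2 were at least 4-fold higher in P1, where 12.4% of 4727 genes were. 1 was at least 4-fold lower, where 10.1% of genes were, and the median log2 ratio was 0.96 against 0.38 for all genes. With 1 library per group no test is possible, and these counts describe the 4 libraries alone. The 2 comparisons share no library.

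Among the effectors, Rsad2 had the largest ratio in lung. Rsad2 (viperin) makes a nucleotide that ends viral RNA chains. It had 136 CPM (115 to 159) in labelled lung P1, 19.8 CPM (16.5 to 23.5) in labelled fat P1, 1.03 CPM (4 UMIs, 0.281 to 2.64) in lung P2 and 15.3 CPM (14.2 to 16.6) in fat P2. Labelled lung P1 stands alone as high and lung P2 as low, with a log2 ratio of 3.73 between them, against 0.23 in fat. Isg15, a ubiquitin-like protein that is attached to other proteins, had 156 CPM (133 to 180) in labelled lung P1, 75.1 (68.6 to 82.1) in labelled fat P1, 10.6 (7.58 to 14.3) in lung P2 and 69.6 (67.2 to 72.1) in fat P2. Its log2 ratio was 3.01 in lung and 0.10 in fat, where the 2 libraries were nearly level. Bst2 (tetherin), which holds budding virus particles on the cell surface, had 652 CPM (605 to 701) in labelled lung P1, 547 (529 to 565) in labelled fat P1, 94.6 (85.2 to 105) in lung P2 and 215 (211 to 219) in fat P2. It was higher in both P1 libraries, 4-fold or more in lung (log2 2.66) and less than that in fat (1.31). Of the other measured effectors all but Ifi27l2a were less than 4-fold apart in each tissue, among them Ifi35 (log2 1.87 in lung and 1.30 in fat), Xaf1 (1.39 and 1.40), which favours cell death, and the interferon-induced receptor chaperone Rtp4 (1.47 and 0.92). The RNA-binding Ifit2 had 25.9 CPM in labelled lung P1, 14.9 in labelled fat P1, 55.4 in lung P2 and 31.2 in fat P2, and it was 1 of 2 measured members with a ratio below 0 in lung (-0.86). Oasl2, of the oligoadenylate synthetase family, had 38.4, 107, 30.7 and 68.6 CPM in the same order, highest in labelled fat P1. Ifit3 and Usp18 reached at most 54.5 and 39.7 CPM in any library.

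Ifi27l2a, a small membrane protein gene, ran against the others. It had 223 CPM (197 to 253) in labelled lung P1, 7.83 (5.83 to 10.3) in labelled fat P1, 226 (211 to 241) in lung P2 and 854 (845 to 863) in fat P2. Fat P2 was by far the highest and labelled fat P1 the lowest, with a log2 ratio of -5.60 between them (48.4-fold lower in P1), while the 2 lung libraries were level (-0.02). With the 2 P1 libraries exchanged, as their tissue markers would have it, the log2 ratio against fat P2 was -1.89 and that against lung P2 was past 4-fold lower.

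Of the GTPases, Gbp4 separated the populations in both tissues. The guanylate-binding proteins coat the vacuoles of intracellular microbes. Gbp4 had 131 CPM (111 to 154) in labelled lung P1, 202 (191 to 213) in labelled fat P1, 5.41 (3.35 to 8.27) in lung P2 and 3.05 (2.55 to 3.62) in fat P2. Both P1 libraries were high and both P2 libraries low, with log2 ratios of 3.20 (lung) and 4.02 (fat), and this held with the P1 libraries exchanged. Gbp7 had 130 CPM (109 to 153) in labelled lung P1, 317 (303 to 331) in labelled fat P1, 72.9 (64.7 to 81.9) in lung P2 and 50.1 (48.0 to 52.2) in fat P2. Its ratio passed 4-fold in fat (log2 2.44) and not in lung (0.75). With the P1 libraries exchanged Gbp7 was no longer past 4-fold in fat (1.22), and Rsad2 was. All 7 GTPases measured in fat had a ratio above 0, with a median of 1.37, and so did all 5 measured in lung, with a median of 1.34. Igtp, a regulator of the immunity-related GTPases, was at 1.69 in lung and 1.37 in fat, and the effector Iigp1 at 1.34 and 1.35. Gbp2 had 90.3 CPM in labelled lung P1, 115 in labelled fat P1, 52.8 in lung P2 and 59.2 in fat P2, so the populations differed little in it. Ifi47 and Irgm2 were highest in labelled fat P1, at 82.2 and 82.6 CPM. Gbp3 and Irgm1 stayed below 50 CPM in every library.

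Of the transcription factors, Irf7 and Irf1 were past 4-fold in lung with the libraries as labelled. Irf7, which drives the production of type I interferon, had 115 CPM (96.3 to 137) in labelled lung P1, 32.4 (28.2 to 37.1) in labelled fat P1, 10.1 (7.15 to 13.7) in lung P2 and 62.8 (60.4 to 65.2) in fat P2. Its log2 ratio was 2.64 in lung and -0.78 in fat. Irf1, an early target of interferon gamma that is also induced by NF-kB, had 231 CPM (203 to 261) in labelled lung P1, 172 (162 to 183) in labelled fat P1, 41.8 (35.6 to 48.7) in lung P2 and 111 (107 to 114) in fat P2. The log2 ratio of Irf1 was 2.22 in lung and 0.60 in fat. With the P1 libraries exchanged, Rsad2, Irf1 and Irf7 were no longer past 4-fold in lung, and Isg15, Bst2 and Gbp4 still were. Ifi47 and Parp14 were then past 4-fold higher in lung as well. Stat2 and Irf9, which belong to the ISRE-binding complex, differed less, at log2 0.30 and 0.73 in lung and 0.73 and 0.72 in fat. Among the sensors, Ddx58 (RIG-I), Ifih1 (MDA5) and Trim25, a ubiquitin ligase that activates RIG-I, were measured in fat with ratios from 0.52 to 1.30, and Trim25 alone in lung (0.95). Zbp1, a sensor of left-handed nucleic acid, stayed below 50 CPM in each library, from 2.58 CPM in lung P2 to 45.5 CPM in fat P2.

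**Figure D2:**
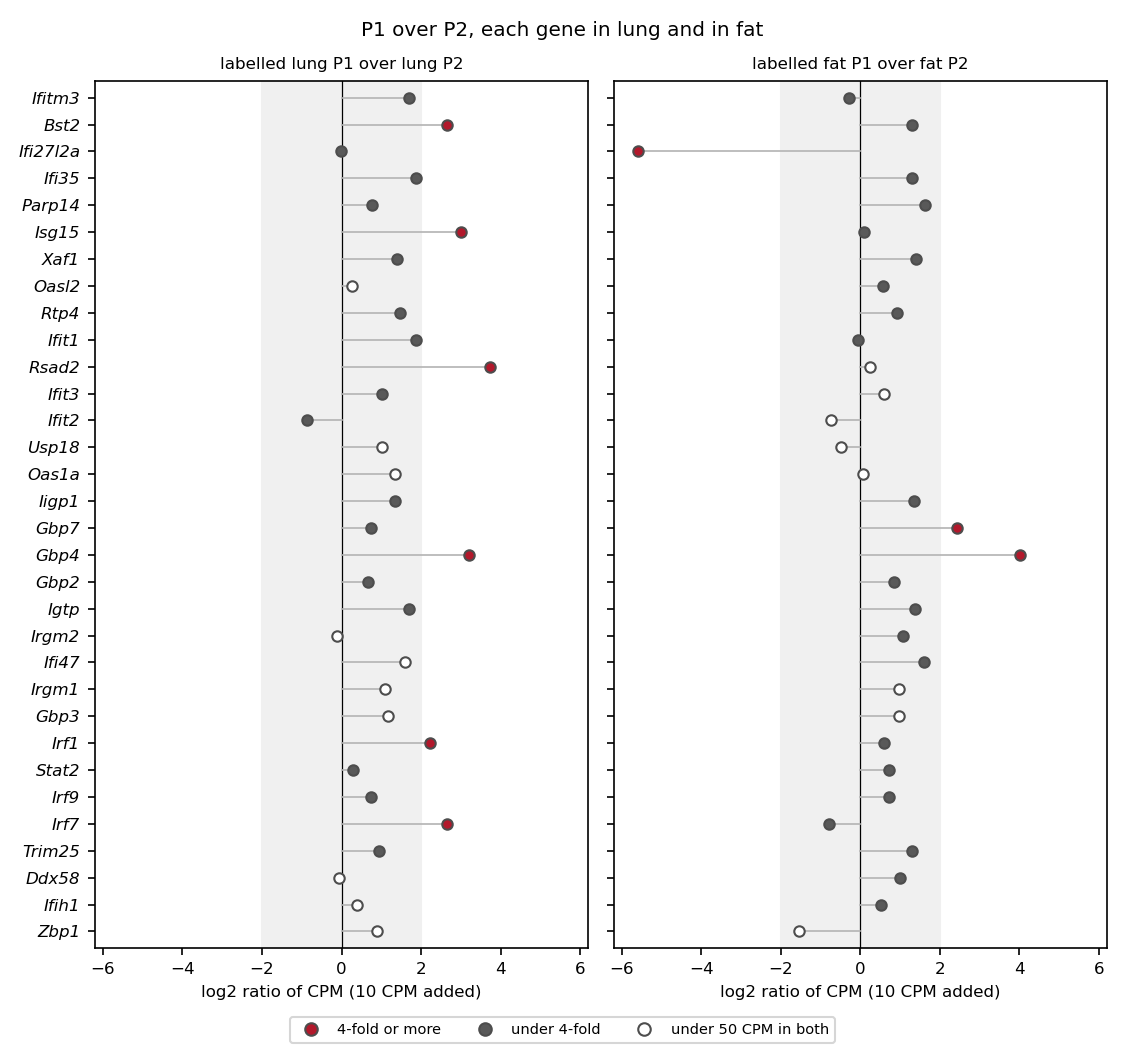
Log2 ratio of CPM, labelled lung P1 over lung P2 (left) and labelled fat P1 over fat P2 (right), for each member after adding 10 CPM, with red points at 4-fold or more and open points under 50 CPM in both libraries. Gbp4 is past 4-fold in both panels, and Ifi27l2a lies at -0.02 on the left and -5.60 on the right.

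Lung was also set against fat within each population. Between the P1 libraries 2 of 26 measured members were at least 4-fold higher in labelled lung P1, where 5.28% of 4605 genes were, and none was at least 4-fold lower, where 5.71% were. The 2 were Ifi27l2a (log2 3.71) and Rsad2 (2.29), of which Rsad2 was no longer past 4-fold (1.85) with at most 5% mitochondrial UMIs, and the median member stood at -0.14 against -0.31 for all genes. Between the P2 libraries none of 14 measured members reached 4-fold in either direction, where 8.24% of 4323 genes were higher and 4.79% lower. The median of the 14 was -0.92 against 0.15 for all genes, and 11 of them lay below 0. Isg15 (-1.95), Ifit1 (-1.88), Ifi27l2a (-1.87) and Irf7 (-1.86) were just under the limit. With TMM or median-of-ratios scaling, which moved the median of all genes in this comparison by -0.32 and -0.30, 5 members were at least 4-fold lower in lung P2: these 4 and Zbp1.

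The rest of the pathway gave a setting for these values. The list of 10 interferon genes themselves (the ligands) had 0 UMIs in labelled lung P1, labelled fat P1 and lung P2, and 9 UMIs in fat P2, where 7 of 10 were at 0. No interferon receptor passed 4-fold in any comparison. Ifnar1, a chain of the type I receptor, had 40.2 CPM in labelled lung P1, 103 in labelled fat P1, 64.2 in lung P2 and 39.5 in fat P2. Of the antigen presentation genes none was at least 4-fold lower in P1, where 11.8% of all genes were in lung and 10.1% in fat. At least 4-fold higher in P1 were 7 of 15 measured in lung, where 8.45% of all genes were, and 8 of 17 in fat, where 12.4% were. They include the class I gene H2-Q7 (log2 2.92 in lung and 4.81 in fat) and, in fat, the class II chain H2-Ab1 (4.01). Of 36 further interferon-induced genes in the matrix, 5 of 16 measured were at least 4-fold higher in P1 in lung, against 8.45% of all genes. In fat 3 of 18 were higher and 1 lower, near the shares of 12.4% and 10.1% over all genes. Ly6e was higher in both (3.04 and 2.55), and Ifi204 was the lower one in fat (-4.78). Of the chemokines that interferon gamma induces, Cxcl9 had 128 CPM in labelled lung P1, 0.154 CPM in labelled fat P1 (1 UMI), 0 UMIs in lung P2 and 10.7 CPM in fat P2. Socs3, an inhibitor of Janus kinases, had 692 CPM in labelled lung P1, 20.1 in labelled fat P1, 27.1 in lung P2 and 634 in fat P2, the same 2 libraries being high as for Irf7.

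How evenly a member was spread over barcodes was described with a spread index, the mean squared rate over barcodes divided by the squared mean rate and corrected for UMI sampling. It is 1 when every barcode has the same rate, and 1 divided by a share when the gene is confined to that share of barcodes at 1 rate. A member was classed as restricted at 5 or more, which matches 20% of barcodes or fewer, and as broad under 2. Classing needed 50 CPM and 5 expected pairs of UMIs in the same barcode. In labelled fat P1 22 members were classed, of which 5 were restricted, where 1.80% of 3949 genes were, and 9 broad, where 89.0% of genes were. In fat P2 13 were classed, of which 3 were restricted, where 2.16% of 3149 genes were, and 3 broad, where 90.8% were. In lung P2 7 were classed, of which 1 was restricted, where 3.69% of 3683 genes were, and 1 broad, where 80.5% were. In labelled lung P1 17 were classed, none was restricted, where 0.127% of 2360 genes were, and all 17 were broad, where 98.3% were. Over the alternative runs listed at the end, some of these 17 passed the limit of 2. Their highest index was 3.79 (Gbp7), 3.06 (Parp14), 2.13 (Ifi27l2a) and 2.03 (Gbp4). The median index of classed members was 1.08 in labelled lung P1, 2.66 in labelled fat P1, 3.11 in lung P2 and 2.81 in fat P2. Over all classed genes it was 1.02, 1.33, 1.48 and 1.18 in the same order.

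Restricted members were found among effectors and GTPases. Ifit1 had an index of 7.54 in labelled fat P1 and 18.2 in fat P2, equal to what 13.3% and 5.50% of barcodes would give. Its summed level in these 2 libraries, at 54.1 CPM in labelled fat P1 and 56.1 CPM (53.9 to 58.4) in fat P2, was nearly the same as the 55.4 CPM (42.5 to 71.1) of labelled lung P1. In labelled lung P1, where Ifit1 had too few expected pairs to be classed, no barcode held more than 2 UMIs of Ifit1, while single barcodes held up to 18 in labelled fat P1 and 46 in fat P2. These highest counts compare libraries of unlike depth and number of barcodes. Labelled lung P1 held 62 UMIs of Ifit1 in all, labelled fat P1 352 and fat P2 2447. Isg15 was restricted in labelled fat P1 (6.93) and fat P2 (9.22) and broad in labelled lung P1 (0.97). Iigp1 was restricted in labelled fat P1 (5.21) and fat P2 (8.97), intermediate in lung P2 (3.45) and broad in labelled lung P1. Igtp (7.15) and Gbp4 (5.04) were restricted in labelled fat P1, and both were broad in labelled lung P1, at 0.84 and 1.03. Iigp1 and Gbp4 lie just above the limit of 5 in labelled fat P1, and Gbp2, an intermediate member, came next below it at 3.68.

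Some of the most uneven members were below 50 CPM and so outside the classes. Rsad2 had an index of 74.6 in labelled fat P1, where 1 barcode held 42 of its 129 UMIs, and of 32.1 in fat P2, against 1.10 in labelled lung P1. Ifit3 had an index of 9.81 in labelled fat P1 and 27.8 in fat P2. The share of barcodes with a UMI, after each barcode was thinned to 1000 UMIs, carried the same contrast. For Isg15 it was 15.5% (95% Clopper-Pearson interval 12.8 to 18.5) in labelled lung P1, 5.95% (4.95 to 7.10) in labelled fat P1, 0.557% (0.241 to 1.09) in lung P2 and 5.23% (4.75 to 5.74) in fat P2. One rate for all barcodes would give 14.4%, 7.24%, 1.05% and 6.73% in the same order, so the observed share was below that value in all but labelled lung P1. Unthinned, the shares were 22.7%, 14.5%, 1.81% and 18.8%. No cell type in these libraries is known to lack these genes, so a background from free RNA could not be read from them.

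Broad members had a low index at levels where uneven ones were also measured. Ifitm3 was broad in all 4 libraries, at 1.01 in labelled lung P1, 1.74 in labelled fat P1, 1.65 in lung P2 and 1.27 in fat P2. In lung P2 this class was lost with barcodes weighted by their UMI pairs (3.13) and with every deposited barcode (2.19). After thinning, 92.6%, 56.2%, 42.3% and 71.1% of barcodes held it, in the same order. Bst2 was broad in both P1 libraries (1.08 and 1.32) and in fat P2 (1.76), and at 2.04 in lung P2 just past the limit of 2, but at 7.24 there with barcodes weighted by their UMI pairs. The other broad members of labelled fat P1 were Irf1 (1.52), Irf9 (1.98), Parp14 (1.77), Ifi35 (1.46), Trim25 (1.48), Ddx58 (1.64) and Ifih1 (1.73), so all 3 sensors classed there were broad. Parp14 modifies proteins with ADP-ribose. In fat P2 Ifi27l2a, at 854 CPM, was broad (1.90), while in lung P2, at 226 CPM, it was the 1 restricted member (6.07), with up to 52 UMIs in a barcode. Among genes at 50 CPM or more, its highest partners by shared barcodes in lung P2 were Ly6a (pair index 4.20, defined below) and Cd74 (2.94), both genes with a known expression in some fibroblasts or antigen-presenting cells. In labelled fat P1, where it had 51 UMIs, they were Gsn (23.6) and Cd74 (13.3). The immunoglobulin gene Igkc, below 50 CPM and so not ranked among the partners, had a pair index with Ifi27l2a of 75.4 in labelled fat P1 and 7.43 in lung P2, and the part of antibody-forming cells in these values was not tested.

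The library labelled lung P1 differed from the other 3 in that nearly every gene was spread evenly. Its 95th percentile of the index over all genes was 1.66, against 2.61 in labelled fat P1, 3.57 in lung P2 and 2.91 in fat P2. Haemoglobin genes, which cells sorted as Ter119-negative should lack, behaved there like the members. Hbb-bs had 3902 CPM and was found in 97.2% of barcodes with an index of 1.05. It was found in 39.7% of barcodes in labelled fat P1 (155 CPM), 36.1% in lung P2 (174 CPM) and 0.355% in fat P2 (16.9 CPM). Its index there was 1.25, 1.40 and 5267 in the same order. A low index of Hbb-bs was thus not particular to labelled lung P1, while its level and share of barcodes were highest there. Cxcl9 in labelled lung P1 had an index of 0.75. The part of RNA shared by all barcodes in the even spread of the members there was not tested. Whether each barcode of this library holds a cell was not tested either, and its classes and shares of barcodes stand under that limit. The leukocyte markers summed to 247 CPM in labelled lung P1, 189 in labelled fat P1, 588 in lung P2 and 81.7 in fat P2, and 10, 6, 7 and 3 of the 29 were at 0.

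**Figure D3:**
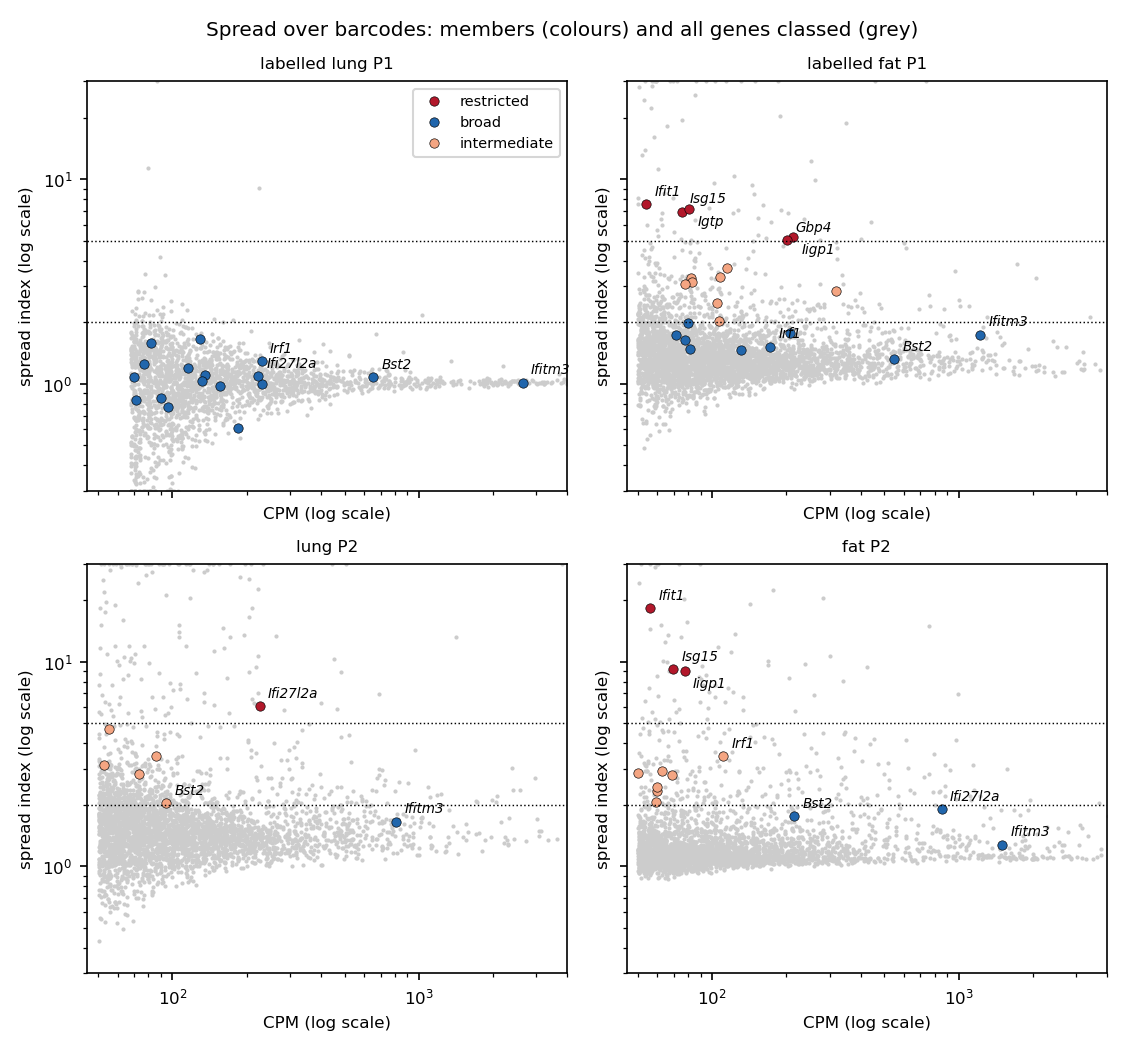
Spread index against CPM (both log axes) of the members that could be classed (coloured) and of all other genes that could (grey) in labelled lung P1, labelled fat P1, lung P2 and fat P2, with dotted lines at 2 and 5. All 17 members of labelled lung P1 lie below 2, while Ifit1, Isg15 and Iigp1 lie above 5 in labelled fat P1 and in fat P2.

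To see whether the uneven members met in the same barcodes, a pair index was computed, the mean product of the rates of 2 genes over the product of their mean rates. It is 1 when they are unrelated, and it is given as a description because the pairs share barcodes and depth. Among 10 members called Ifit-type here (Ifit1, Ifit2, Ifit3, Isg15, Rsad2, Usp18, Oasl2, Rtp4, Irf7 and Zbp1), the median over pairs was 1.05 in labelled lung P1, 3.48 in labelled fat P1, 2.59 in lung P2 and 3.65 in fat P2. Pairs of GTPases had medians of 1.19, 2.52, 1.96 and 2.53 in the same order. Pairs of an Ifit-type member and a GTPase had 1.22, 1.83, 1.77 and 2.58, and pairs of the remaining members 0.97, 1.20, 1.18 and 1.34. In labelled fat P1 the median of the cross pairs was thus below that of either block, and in fat P2 it was close to that of the GTPase pairs. The highest pairs were Ifit2 with Rsad2 (21.2) in labelled fat P1 and Ifit3 with Rsad2 (21.1) in fat P2. Usp18, which strips Isg15 from proteins and dampens the type I receptor, met Rsad2 at 8.97 in labelled fat P1. In that library 1 barcode held 42 of the 129 UMIs of Rsad2, and Ifit2 had 97 UMIs with up to 10 in a barcode. Pair values with these 2 genes there can rest on few barcodes, and the part of single barcodes in them was not tested.

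Irf1 did not follow the others in fat P2. Its index there was 3.45, so it was uneven, but its pair index was 1.03 with Ifit1, 1.09 with Isg15, 0.77 with Rsad2, 1.09 with Igtp and 0.75 with Irf7. Its highest partners among 3136 genes were Cxcl1 (2.17), Gadd45b (2.05), Birc3 (1.86), Zfp36 (1.79) and Sgk1 (1.78), most of them known as early-response or NF-kB targets. Cxcl10, with a pair index of 1.67 with Irf1, was also within the highest 5% of these partners, which began at 1.21. By comparison Ifit1 met Cxcl10 (8.49), Trim30a (3.94) and Rnf213 (3.64) most often in fat P2. In labelled fat P1, Isg15 and Rsad2 met Ifi44 (4.69 and 11.5) and Phf11d (3.87 and 7.62) most, and Igtp met Gm4951 (4.37). The values of Rsad2 there stand under the limit given above, that 1 barcode held 42 of its 129 UMIs. In lung P2, where members were low, Igtp met the endothelial genes Vwf (10.6) and Ptprb (7.67), Irf1 met Cldn5 (5.67), and Isg15 met Ager (40.1), a gene of alveolar epithelium. Isg15 had 41 UMIs there in 26 barcodes, with 8 of them in 1 barcode, so its value can rest on very few barcodes. Endothelial markers outnumbered fibroblast markers in 1.88% of lung P2 barcodes, and their part in these values was not tested.

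**Figure D4:**
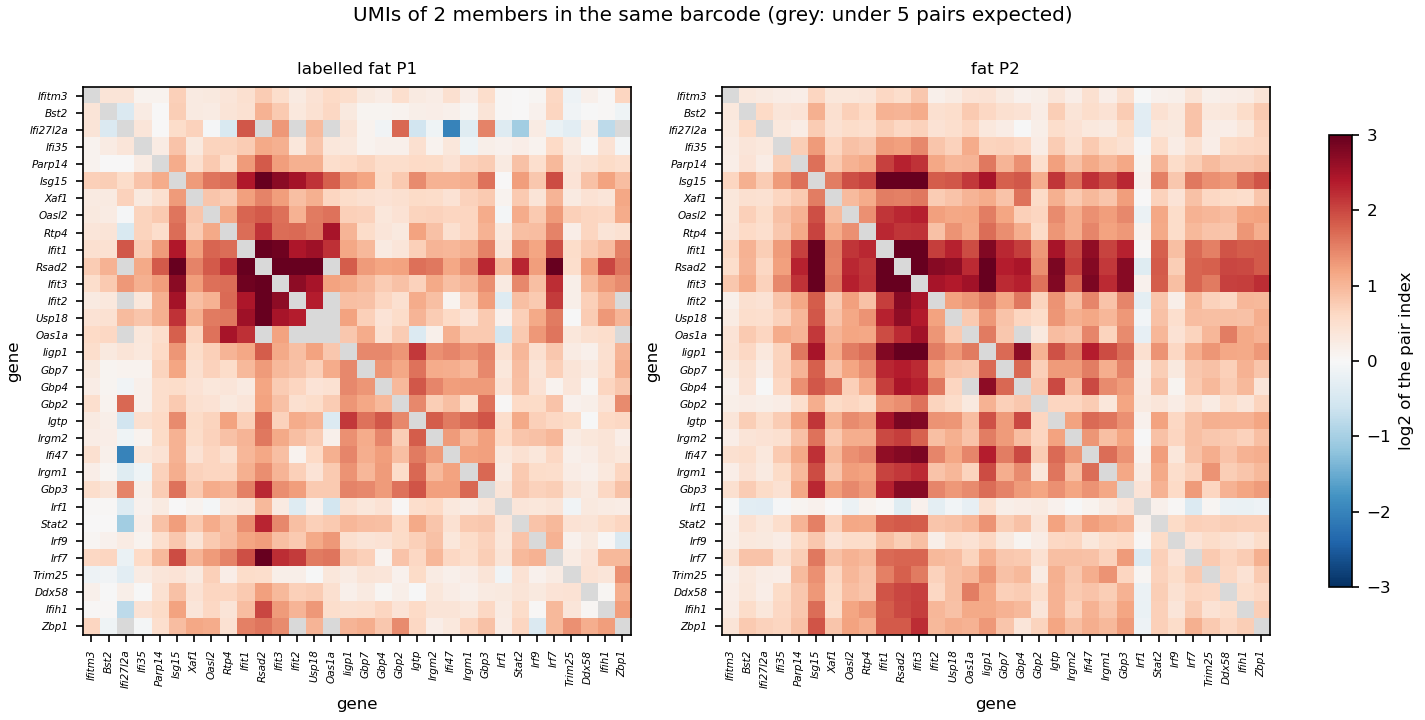
Pair index of each pair of members (log2 colour scale, red for more often in the same barcode than unrelated genes) in labelled fat P1 and fat P2, with grey on the diagonal and where under 5 pairs were expected. Ifit1, Rsad2, Ifit3 and Isg15 are among the darkest in both libraries, and the row of Irf1 is near white in fat P2.

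Responding barcodes were then counted directly. Each barcode was thinned to 1000 UMIs and counted as over a cut at 3 or more UMIs summed over 5 Ifit-type effectors (Ifit1, Ifit2, Ifit3, Rsad2 and Usp18) or over 5 GTPases (Igtp, Iigp1, Gbp2, Ifi47 and Irgm2). Such a class is a range of a score and not a cell type. Over the Ifit-type cut were 4 of 652 barcodes (0.613%, 0.167 to 1.56) in labelled lung P1, 16 of 1948 (0.821%, 0.470 to 1.33) in labelled fat P1, 2 of 1436 (0.139%, 0.0169 to 0.502) in lung P2 and 78 of 7898 (0.988%, 0.781 to 1.23) in fat P2. One rate in all barcodes would put 0.363%, 0.0641%, 0.0135% and 0.0739% over it, which is below the interval in labelled fat P1, lung P2 and fat P2 and inside it in labelled lung P1. Another random thinning gave 0.308% in labelled fat P1, where the share thus depends on the draw. Just below the cut, at 2 UMIs, were 19, 27, 11 and 112 barcodes.

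The GTPase cut picked out more barcodes in labelled fat P1 than elsewhere. Over it were 11 barcodes (1.69%, 0.845 to 3.00) in labelled lung P1, 114 (5.85%, 4.85 to 6.99) in labelled fat P1, 8 (0.557%, 0.241 to 1.09) in lung P2 and 66 (0.836%, 0.647 to 1.06) in fat P2. One rate would put 1.25%, 2.05%, 0.117% and 0.142% over it. The interval of labelled lung P1 again held that value, and without the 7 barcodes of highest doublet score, with the thinning drawn anew, the share there was 0.465%. At 2 UMIs were 39, 132, 24 and 160 barcodes, so the shares move with the cut. Of the 16 Ifit-type barcodes of labelled fat P1, 8 were also over the GTPase cut (50%, 24.7 to 75.3), against 106 of the 1932 others (5.49%). Of the 78 of fat P2, 16 were over both (20.5%, 12.2 to 31.2), against 50 of 7820 others (0.639%).

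The levels in these barcodes were read from the UMIs left over by the thinning, which had not set the class. In fat P2, 14 of the 25 measured members outside the 5 that set the Ifit-type cut were at least 4-fold higher over the cut than in the rest, where 1.19% of 3524 genes were. Isg15 had 1008 CPM (906 to 1118) over the cut and 60.7 CPM in the rest, a 14.4-fold difference with 10 CPM added. Iigp1 had 901 CPM (805 to 1005) over the cut and 69.9 in the rest, Ifi47 209 (164 to 262) and 18.3, Oasl2 449 (382 to 524) and 65.3, and Parp14 333 (276 to 399) and 56.8. Thus GTPases were high in barcodes picked by effectors. Ifitm3 (2677 over the cut and 1491 CPM in the rest), Ifi27l2a (1564 and 844) and Irf9 (59.3 and 43.7) were under 2-fold apart, and Irf1 was level, at 113 CPM (80.7 to 154) over the cut and 113 CPM in the rest. Of the UMIs left over for Rsad2, 30.1% were in the barcodes over the cut, which held 0.992% of all leftover UMIs. Rsad2 is 1 of the 5 genes that set this cut, so an excess of it there follows in part from the choice of barcodes.

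With the GTPase cut in fat P2, 11 of 25 other members were at least 4-fold higher, where 0.773% of 3493 genes were. Ifit3 had 573 CPM (492 to 665) over the cut and 24.8 CPM in the rest, Ifit1 845 (745 to 955) and 49.7, and Rsad2 331 (270 to 402) and 12.4. Outside the members, the 10 genes with the largest ratios over the Ifit-type cut in fat P2 began with Mx1 (13.2-fold), an antiviral GTPase, and Cxcl10 (11.5-fold), and included Cmpk2, Cxcl9, Herc6 and Gbp5. Over the GTPase cut the first was Cxcl9, at 465 CPM over the cut and 7.29 CPM in the rest (27.5-fold). The interferon gamma target Ido1, with 22 UMIs over the cut and 20 UMIs in the rest, was among the first 4.

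In labelled fat P1 the barcodes over the GTPase cut had fewer members past 4-fold, 5 of 24 measured, where 0.275% of 4356 genes were. These were Rsad2 (192 CPM over the cut, 141 to 255, and 13.7 CPM in the rest), Isg15 (298 and 66.0), Gbp3 (163 and 32.2), Gbp4 (767 and 161) and Gbp7 (1170 and 255). Ifit1 had 204 CPM (151 to 269) over the cut and 49.6 CPM in the rest, a 3.59-fold difference. One rate would put 2.05% of barcodes over this cut in labelled fat P1, against 5.85% seen, and 0.142% in fat P2, against 0.836% seen. The part of barcodes that pass the cut at such a rate in the smaller count of members was not tested. Among genes outside the set the largest were Ciita (5.40-fold), the switch of class II antigen presentation, Gbp6 (5.32-fold) and Gm4951 (4.26-fold). The 16 barcodes over the Ifit-type cut held too few leftover UMIs for a count of genes. In them Isg15 had 1095 CPM (827 to 1422) over the cut and 67.0 CPM in the rest, and Irf7 274 (150 to 459) and 29.7.

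Over the Ifit-type cut in fat P2 the 29 leukocyte markers summed to 28.2 CPM (10 UMIs), with 25 of them at 0, against 72.0 CPM in the rest, with 3 at 0. After thinning, 2.56% of barcodes over this cut held such a UMI, against 2.66% of the rest. Over the GTPase cut in labelled fat P1 the markers summed to 28.5 CPM (7 UMIs), with 27 at 0, against 223 CPM in the rest, with 6 at 0, and 2.63% of barcodes held one, against 4.58% of the rest. The counts at 0 compare classes of unequal size. In labelled lung P1 and lung P2 either class held at most 1 leftover leukocyte UMI, too few for a level. After thinning, 18.2% of the 11 barcodes over the GTPase cut in labelled lung P1 held one, against 20.7% of the rest. In lung P2 it was 25% of the 8 over the GTPase cut, against 15.2% of the rest. Over the Ifit-type cut it was 0% in both libraries, from 4 and 2 barcodes, against 20.8% and 15.3% of the rest. Depth was similar in the classes with level counts, at a median of 5352.5 UMIs over the Ifit-type cut and 5150 in the rest of fat P2, and 2920.5 over the GTPase cut and 2965 in the rest of labelled fat P1. Fibroblast markers in fat P2 summed to 54322 CPM over the Ifit-type cut and 62694 CPM in the rest. Endothelial markers in labelled fat P1 summed to 21528 CPM over the GTPase cut and 21340 CPM in the rest. Epithelial markers there summed to 167 CPM over the GTPase cut and 1707 CPM in the rest, with 4 and 0 of 8 at 0, and fibroblast markers to 36.7 CPM over the cut and 241 CPM in the rest, with 8 and 0 of 12 at 0. Lymphatic markers there summed to 1073 CPM over the GTPase cut and 722 CPM in the rest, with 2 and 0 of 4 at 0, and the part of these markers in the class was not tested. Epithelial markers in fat P2 summed to 334 CPM over the GTPase cut and 132 CPM in the rest, and their part was not tested either. The 16 Ifit-type barcodes of labelled fat P1 were deeper, with a median of 3626.5 UMIs against 2954.5 in the rest.

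**Figure D5:**
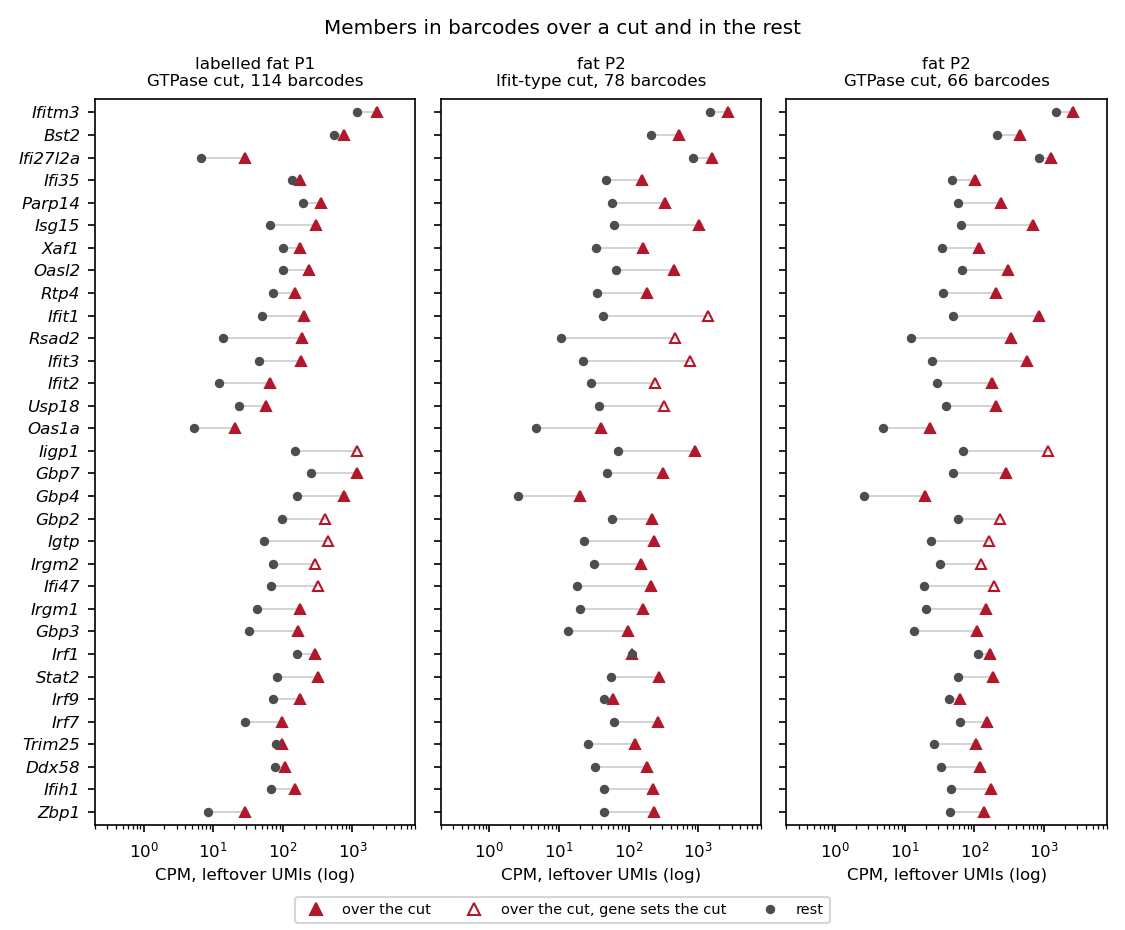
CPM from leftover UMIs (log axis) of each member in barcodes over a cut (red triangles, open for the 5 genes that set the cut) and in the rest (dark points), in labelled fat P1 and fat P2. In fat P2 Isg15, Rsad2 and Ifit3 lie far apart under both cuts, while Irf1 has 113 CPM in both groups under the Ifit-type cut.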

How the data were processed

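Single-cell libraries of sorted mouse cells were made with a 10x Genomics kit for 3′ transcript ends, per the labels' protocols. Cell Ranger 3.1.0 and the build mm10 are listed, per the submitters' processing notes. The authors deposited counts, that is UMIs per gene and called cell barcode, with no normalization. The annotation release is not given in the sources used here. Each matrix had 31053 gene entries, and entries with the same symbol were summed to 31017 symbols. Gene positions and overlaps came from GENCODE vM21 on GRCm38, and promoter windows from RefSeq on GRCm38.p6.

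Groups followed the labels, with 1 library each, so no test was run. Fat and lung were not used as replicates of a population. Barcodes were filtered as stated in the results. CPM have exact Poisson 95% intervals and shares exact Clopper-Pearson 95% intervals, which cover counting error only. Doublets were kept. As an alternative, barcodes with the highest Scrublet scores (Scanpy 1.11.5) were removed at 0.8% per 1000 deposited barcodes, which took out 7 (labelled lung P1), 59 (labelled fat P1), 33 (lung P2) and 570 (fat P2). Scrublet's automatic threshold marked 3 of 7898 barcodes in fat P2 and was not used. Calls over a cut against the rest were made only with at least 100000 leftover UMIs, a limit chosen after the counts were seen.

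The members, pathway lists and cuts were chosen with earlier results of these data known. By the rule for named genes, members past 4-fold in a comparison, or classed as restricted or broad, get full values and the others ranges. Genes outside the set are named as up to 4 of a pathway list with the largest ratio, or among the 10 with the largest ratio over the Ifit-type cut. Any other gene, such as Fabp4, Foxf1, Hbb-bs, Ifnar1, partners by pair index and the genes over the GTPase cut, was chosen after its values were seen. The fold calls and the spread index were tested on simulated data with known answers. TMM factors came from edgeR 4.0.16, and other steps used Python 3.11.15, numpy 2.4.6 and scipy 1.17.1.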

Additional observations from a re-analysis of the deposited data

Results flagged for a closer look

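For 2 members at 50 CPM or more in 1 library of each pair, lung against fat ran in opposite directions in the 2 populations, by at least 2-fold each way. With 1 library per group this difference was not tested, and the tissue labels of the P1 libraries go against their markers. Ifi27l2a had a log2 ratio of 3.71 between labelled lung P1 and labelled fat P1, and of -1.87 between lung P2 and fat P2. Irf7 had a log2 ratio of 1.56 between the P1 libraries and of -1.86 between the P2 libraries. With the P1 libraries exchanged, Ifi27l2a stood at -3.71 and Irf7 at -1.56 in P1, both in the same direction as in P2. Rsad2 had log2 ratios of 2.29 between the P1 libraries and -1.20 between the P2 libraries, but was below 50 CPM in both P2 libraries.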

How the results depend on the processing

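No paired analysis was possible because each population and tissue has 1 library. Members at least 4-fold higher in P1 in lung numbered within 1.5 times of the main count in each alternative run, and so did restricted and broad members of fat P2, except when classed from 10 CPM. The shares over a cut moved more. TMM scaling moved the median log2 ratio of all genes by -0.34 for P1 over P2 in fat and median-of-ratios scaling by -0.37, and the median member between the P1 libraries (lung over fat) became 0.035 with the second.

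With the P1 libraries exchanged, 1 member was 4-fold lower in P1 in lung, 0 were lower in fat, and between the P1 libraries 0 were higher and 2 lower, with a median of 0.142, Rsad2 at -2.291 and Ifi27l2a at -3.711. With at most 5% mitochondrial UMIs, 1 member was higher in labelled lung P1 than in labelled fat P1 and the median was 0.052.

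Members at least 4-fold lower in lung P2 than in fat P2 numbered 5 with TMM, 5 with median-of-ratios scaling, 3 with 1 CPM added, 3 with the mean over barcodes, and 2 without barcodes holding a leukocyte marker. They numbered 1 with no minimum CPM, 1 with every deposited barcode, 1 at 5% mitochondrial UMIs and 1 with marker-matched barcodes. Restricted members of labelled fat P1 numbered 3 with barcodes weighted by UMI pairs, 3 with every deposited barcode and 8 when classed from 10 CPM. In lung P2 restricted members numbered 3 weighted and 2 from 10 CPM, and broad ones 0 weighted, 0 with every barcode, 2 marker-matched and 4 from 10 CPM. In fat P2 both classes numbered 6 from 10 CPM. From 10 CPM, 28 members were classed in labelled fat P1, 18 in lung P2 and 30 in fat P2, and 3.33%, 5.30% and 3.55% of all genes were restricted in the same order. The limit of 10 CPM, and the shares at 5% mitochondrial UMIs, were chosen after seeing the data.

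A cut at 2 UMIs gave Ifit-type shares of 3.53% (labelled lung P1), 2.21% (labelled fat P1), 0.905% (lung P2) and 2.41% (fat P2), and GTPase shares of 7.67%, 12.6%, 2.23% and 2.86%. A cut at 4 gave Ifit-type shares of 0.153% (labelled lung P1), 0.257% (labelled fat P1) and 0.494% (fat P2), and GTPase shares of 0.307%, 3.29%, 0% and 0.291% in the 4 libraries. With 2000 UMIs and a cut at 6, the GTPase shares were 0.610%, 4.02%, 0.129% and 0.445%, and the Ifit-type share of fat P2 was 0.598%. Another thinning gave an Ifit-type share of 0.308% in labelled fat P1. With at most 5% mitochondrial UMIs, Ifit-type shares were 0% (labelled lung P1) and 1.38% (labelled fat P1), and the GTPase share of labelled lung P1 was 3.70%. Without the highest doublet scores that last share was 0.465%. These settings draw the thinning anew or leave fewer barcodes, and other causes were not tested. The shallow library labelled lung P1 limits every statement on single barcodes there.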
